A study of Caenorhabditis elegans with 8 samples.

Results

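Honokiol was given at 200 µM for 1 h to whole worms of the nematode Caenorhabditis elegans, and their RNA was set against that of worms given the solvent DMSO. Honokiol is a biphenol of Magnolia bark and a positional isomer of magnolol. The comparison took 5 of the 8 libraries of the series, placed by their titles: 2 of honokiol and 3 of the DMSO control. The other 3 libraries, of magnolol at the same dose and time, entered the fit because 2 honokiol libraries give little hold on the spread. The sources used here do not give strain, genotype, age, stage or culture conditions. They also do not say whether replicates were grown apart. The p-values therefore rest on a spread between libraries that may be technical.

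Animals handle foreign lipophilic compounds in steps. Cytochrome P450s, fed with electrons by P450 reductase, oxidise them. Transferases such as UDP-glucuronosyltransferases and glutathione S-transferases attach a polar group, and ABC transporters pump the products out of cells. In C. elegans much of this takes place in the intestine, and many of these gene families, like that of the nuclear hormone receptors, are far larger than in mammals and stand in clusters on the chromosomes.

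The test covered 16813 of the 21309 rows in the count table, the rest having too few counts. Total counts were 30274330 to 34063355 per library over these 5. Levels below are in CPM, which is counts scaled to library size and composition. Changes are log2 fold changes ± SE, honokiol against control. Genes count as called where edgeR's two-sided quasi-likelihood test gave a Benjamini-Hochberg adjusted p under 0.05. The libraries were checked against markers of 11 tissues and stages of whole animals, and none of the lists was at 0. In honokiol 2 the 6 yolk protein genes summed to 11630 CPM against 17130 to 20130 CPM in controls and 18650 CPM in honokiol 1, and body wall muscle markers to 8923 CPM against 10820 to 11930 CPM in the other 4 libraries. Germline markers summed to 3410 CPM in honokiol 2 against 3975 to 4283 CPM elsewhere. Low sums in honokiol 2 were not limited to tissue markers. Its respiratory chain genes summed to 12480 CPM against 13950 to 14360 CPM in the other 4 libraries, and its constitutive chaperones to 10140 CPM against 10820 to 11710 CPM. Sperm markers, at 3430 CPM in honokiol 2, were within the 3211 to 3431 CPM of the controls. Beyond a refit of every call without honokiol 2, their part in the results below was not tested. In RNA of whole worms, fewer cells of a type and less RNA per cell cannot be told apart. Honokiol 2 also read lower than honokiol 1 for long transcripts (Spearman rho of -0.354 between their log ratio and exon length over 12873 genes, which are not independent replicates), against -0.242 to -0.063 between pairs of controls.

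After 1 h of honokiol the response was mostly upward. In all 511 rows rose (3.04% of those tested) and 66 fell (0.393%). Of these, 298 rose (1.77%) and 16 fell by at least 2-fold, and 55 rose by at least 4 on the log2 scale. The median change was 1.13 among rows that rose and -0.74 among those that fell, beside -0.01 over all tested rows. Rows called higher held 1.38% to 1.41% of all CPM in the controls and 3.34% and 3.38% in honokiol 1 and 2. Rows called lower went from 0.230% to 0.235% in controls to 0.148% and 0.155%. In every called row the honokiol libraries lay outside the range of the controls, which was also so with honokiol above in 13.1% and below in 10.5% of all tested rows. There were 315 rows called higher and 7 called lower in every alternative fit, including each library left out in turn. The count of lower rows rested on single libraries: it fell to 36 without control 1 and 43 without magnolol 3, and also fell with a honokiol library left out. Rows called in such fits were not all among the 66: without control 1, 30 of the 36 were, and without control 3, 42 of 58. Fewer of the 66 stayed called with a honokiol library left out, which leaves a single library in that group, than with any control left out.

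**Figure D1:**
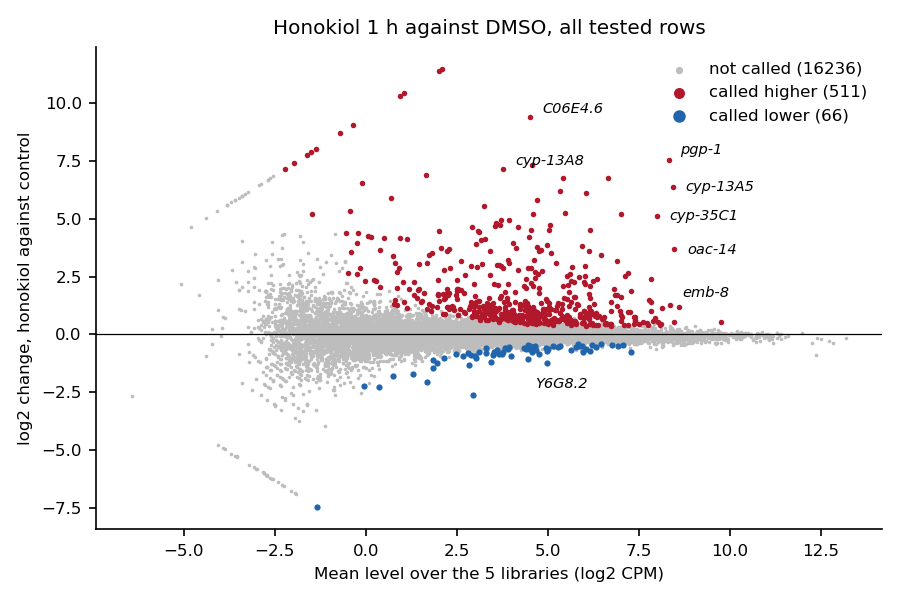
The log2 change with honokiol (vertical axis) is plotted against the mean level over the 5 libraries (horizontal axis, log2 CPM) for each tested row, with red for the 511 rows called higher, blue for the 66 called lower and grey for the rest; rows at 0 in all 5 libraries are not drawn. Red points reach far above the line at low and moderate levels, while blue points stay close to it but for ZK105.11 at the lower left, at 0 in both honokiol libraries; straight lines of points at the far left are rows at 0 in one group, whose fitted change depends on a prior count.

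Genes of oxidation, conjugation and export made up a large share of the rise. The lists of these functions held 394 tested rows, of which 119 were called higher (30.2%) and 3 lower. Among all tested rows 3.04% were called higher and 0.393% lower. These lists, chosen with earlier results of these data known, gave 23.3% of all rows called higher. Their summed level was 13890 to 14270 CPM in the controls and 23060 CPM in both honokiol libraries. The median change over the 394 rows was 0.15.

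The first oxidation step included large rises. Every tested member of the cyp-13A subfamily of P450s was called higher (11 of 11, median change 6.13). The gene cyp-13A5 (row gene7752, chromosome II, 9798277 to 9800362, minus strand in WBcel235) stood at 10.7, 11.5 and 8.76 CPM in controls 1 to 3 and 823 and 878 CPM in honokiol 1 and 2. Both honokiol libraries lay far above every control, a change of 6.36 ± 0.14 with an adjusted p of 1.24e-12. Per kb of exon its level went from 6.20 to 511 CPM, and of the called-higher genes C42D4.1 and F48D6.4 alone stood above it on that scale with honokiol. The close relative cyp-13A4 stood at 1.96, 2.68 and 2.25 CPM in controls 1 to 3 and 151 and 170.2 CPM in honokiol 1 and 2, and cyp-13A7 at 0.525, 0.476 and 0.0661 CPM in controls 1 to 3 and 54.5 and 63.02 CPM in honokiol 1 and 2. These groups did not overlap either, and the changes were 6.13 ± 0.15 and 7.31 ± 0.28. On chromosome III, cyp-13A12 stood at 3.85, 1.52 and 1.32 CPM in controls 1 to 3 and 231 and 261 CPM in honokiol 1 and 2, a change of 6.76 ± 0.28. It lies next to cyp-13A11 (3.93 ± 0.33) and away from the members on chromosome II. The smallest changes were those of cyp-13A1 (1.97 ± 0.22), cyp-13A2 (2.59 ± 0.13) and cyp-13A3 (1.31 ± 0.32). Of these cyp-13A3 was near the threshold, with an adjusted p of 0.0324 and of 0.0516 to 0.213 with any library but control 2 left out. The sources used here do not say how reads shared between such paralogs were counted, so the values of single members are uncertain.

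The cyp-35 P450s, a subfamily used as a reporter of xenobiotic exposure in worms, held 6 called members of 10 (median change 3.27). The gene cyp-35C1 (row gene38030, chromosome V, 13896663 to 13898487, minus strand) stood at 19.6, 16.7 and 15.7 CPM in controls 1 to 3 and 566 and 651 CPM in honokiol 1 and 2, a change of 5.13 ± 0.13. Its relative cyp-35A4 stood at 1.43, 1.10 and 1.02 CPM in controls 1 to 3 and 31.9 and 41.5 CPM in honokiol 1 and 2, and cyp-35A5 at 2.89, 2.32 and 2.12 CPM in controls 1 to 3 and 37.4 and 38.2 CPM in honokiol 1 and 2. The honokiol libraries were above the controls in each, with changes of 4.94 ± 0.21 and 3.95 ± 0.17. The smallest called change in the subfamily was that of cyp-35B2 (1.75 ± 0.31), whose adjusted p of 0.00325 became 0.0571 without honokiol 2. Not called were cyp-35B1, at 3.83, 4.43 and 4.56 CPM in controls 1 to 3 and 6.23 and 9.73 CPM in honokiol 1 and 2 with a 95% interval of 0.34 to 1.47, and cyp-35A1, at 0, 0.178 and 0 CPM in controls 1 to 3 and 0.505 and 2.08 CPM in honokiol 1 and 2. For cyp-35A1 the honokiol libraries were above the controls at a level of few reads.

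Other P450 subfamilies were called in part. In the cyp-34A list 5 of 8 members rose (median 1.46), led by cyp-34A7 at 0.759, 1.28 and 0.992 CPM in controls 1 to 3 and 29 and 33 CPM in honokiol 1 and 2, a change of 4.93 ± 0.18. In the cyp-33 list 7 of 18 rose (median 0.82), with cyp-33D3 (3.04 ± 0.25) at the top. In the cyp-14A list 3 of 5 rose (median 1.00), among them cyp-14A4 (3.42 ± 0.35) and cyp-14A3 (4.22 ± 0.71), the latter from 0, 0.208 and 0.198 CPM in controls to 2.61 and 2.49 CPM. Of 21 other P450s 5 rose and 1 fell (median 0.04). The highest of these was cyp-13B1 on X, at 2.63, 5.53 and 3.17 CPM in controls 1 to 3 and 29.4 and 35.13 CPM in honokiol 1 and 2, a change of 3.09 ± 0.25. The member that fell was cyp-37B1, at 69.0, 79.6 and 72.5 CPM in controls 1 to 3 and 37.99 and 50.5 CPM in honokiol 1 and 2, a change of -0.74 ± 0.13 whose adjusted p of 0.00292 became 0.0914 without honokiol 1.

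The partners of the P450s moved less. The gene emb-8, which encodes the P450 reductase that passes electrons to these enzymes, stood at 219.7, 208 and 192 CPM in controls 1 to 3 and 509 and 495 CPM in honokiol 1 and 2. It was already high in controls, and its honokiol libraries were above all of them, a change of 1.28 ± 0.11 with an adjusted p of 2.54e-06. The cytochrome b5 gene cytb-5.1, also an electron donor, stood at 47.7, 43.04 and 44.9 CPM in controls 1 to 3 and 88.3 and 96.0 CPM in honokiol 1 and 2, a change of 1.03 ± 0.09. The other 2 of 4 donors tested were not called. The gene vem-1, a relative of mammalian membrane progesterone receptor components and named after its values were seen, rose by 2.32 ± 0.12. Among the flavin monooxygenases, a separate oxidation system, fmo-5 rose (0.73 ± 0.13) and the other 4 were not called. The stress reporter fmo-2 stood at 4.61, 2.38 and 5.69 CPM in controls 1 to 3 and 4.81 and 3.44 CPM in honokiol 1 and 2, with overlapping groups and an interval of -0.69 to 0.63.

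Dehydrogenases and esterases were called in smaller shares. Short-chain dehydrogenases, which oxidise or reduce alcohols and ketones, rose in 5 of 37 tested rows (median 0.09). The gene dhs-23 stood at 3.10, 2.80 and 3.04 CPM in controls 1 to 3 and 70.4 and 86.9 CPM in honokiol 1 and 2, a change of 4.72 ± 0.20, and stdh-2 at 0.818, 0.773 and 0.992 CPM in controls 1 to 3 and 10.2 and 10.6 CPM in honokiol 1 and 2, a change of 3.59 ± 0.23. The short-chain dehydrogenase relatives C06E4.3 and C06E4.6 stood outside the list, both on chromosome IV. C06E4.3 stood at 0.642, 1.10 and 1.19 CPM in controls 1 to 3 and 91.0 and 119 CPM in honokiol 1 and 2, and C06E4.6 at 0.175, 0 and 0.0661 CPM in controls 1 to 3 and 49.03 and 64 CPM in honokiol 1 and 2. Both were close to 0 in the controls and far from it with honokiol, with changes of 6.75 ± 0.18 and 9.37 ± 0.30. Of 32 carboxylesterases, which cleave esters, 7 rose and 1 fell (median 0.02), and 0 fell with any library but control 1 or honokiol 2 left out. The gene cest-33 stood at 45.6, 54.8 and 43.8 CPM in controls 1 to 3 and 269 and 280.0 CPM in honokiol 1 and 2, a change of 2.51 ± 0.11, and cest-35.2 (4.81 ± 0.23) rose from about 1 CPM. Aldehyde and alcohol dehydrogenases rose in 2 of 15, alh-5 (0.99 ± 0.11) and alh-10, and the count was 1 without any single control or honokiol library, since alh-10 then had an adjusted p of 0.0553 to 0.205.

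The conjugation step rose through several families. Of 66 UDP-glucuronosyltransferases, which attach sugars, 31 rose and 1 fell (median 0.53). Their summed level went from 1743 to 1797 CPM in controls to 3666 and 3902 CPM with honokiol. The gene ugt-41 (row gene35184, chromosome V, 7161068 to 7163595, minus strand) stood at 28.6, 26.5 and 28.4 CPM in controls 1 to 3 and 247 and 263 CPM in honokiol 1 and 2, a change of 3.19 ± 0.10. The steepest change was that of ugt-16 on row gene37641, at 2.57, 2.29 and 3.67 CPM in controls 1 to 3 and 106 and 108 CPM in honokiol 1 and 2, or 5.24 ± 0.15. The other row under that symbol, gene34946, changed by 1.69 ± 0.24. The member with the highest CPM among those named was ugt-62, at 139, 136 and 135 CPM in controls 1 to 3 and 339.9 and 389.6 CPM in honokiol 1 and 2, a smaller change of 1.42 ± 0.10. Named after their values were seen, ugt-33 (3.77 ± 0.19), ugt-20 (3.65 ± 0.18), ugt-25 (2.14 ± 0.13) and ugt-22 (1.86 ± 0.10) filled the range between. The count of higher members was 26 to 33 with a library left out, and that of lower members was 0 without control 1, control 2, either honokiol library or magnolol 3.

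Of 45 glutathione S-transferases 10 rose (median 0.19). The gene gst-33 stood at 5.08, 5.74 and 3.94 CPM in controls 1 to 3 and 57.1 and 64.5 CPM in honokiol 1 and 2, a change of 3.62 ± 0.14, and gst-5 at 23.7, 26.9 and 25.1 CPM in controls 1 to 3 and 111.9 and 129 CPM in honokiol 1 and 2, a change of 2.25 ± 0.13. Lower-level members were gst-21 (4.10 ± 0.25) and gst-44 (4.45 ± 0.23), both near 1 CPM in controls. The usual reporter of the SKN-1 response, gst-4, was not among them: it stood at 34.2, 27.3 and 36.7 CPM in controls 1 to 3 and 37.5 and 38.5 CPM in honokiol 1 and 2, and its honokiol libraries were just above the highest control, with an interval of -0.06 to 0.50. Glutathione synthesis did not show a call either, as gcs-1, the rate-limiting enzyme, stood at 155, 155 and 138 CPM in controls 1 to 3 and 157 and 146 CPM in honokiol 1 and 2 (interval -0.19 to 0.24).

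Members of 2 less studied families reached higher levels than most transferases. The O-acyltransferase-like gene oac-14 (row gene44230, chromosome X, 10139372 to 10142013, minus strand) stood at 60.4, 70.5 and 56.1 CPM in controls 1 to 3 and 786 and 809 CPM in honokiol 1 and 2. This is a change of 3.68 ± 0.12, and per kb of exon oac-14 reached 356 CPM with honokiol beside 142 CPM for ugt-41. Of 41 tested oac genes 5 rose (median 0.04), the others being oac-20 (2.09 ± 0.12), oac-6 (1.80 ± 0.11), oac-31 (1.57 ± 0.16) and oac-40 (3.07 ± 0.39). The T16G1 and E02C12 genes carry a kinase-like domain shared with insect ecdysteroid kinases, and 7 of 11 rose (median 2.12). T16G1.6 stood at 8.41, 8.66 and 8.40 CPM in controls 1 to 3 and 299 and 319.7 CPM in honokiol 1 and 2, a change of 5.19 ± 0.12, and E02C12.10 at 1.28, 1.34 and 0.761 CPM in controls 1 to 3 and 56.2 and 70.9 CPM in honokiol 1 and 2, a change of 5.80 ± 0.19. In both genes the honokiol libraries were far above every control, and the controls lay close together for T16G1.6 but not for E02C12.10, where control 3 was low.

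Among exporters a few genes had large changes. Of 14 P-glycoproteins, which pump lipophilic compounds out of cells, 5 rose (median 0.19). The gene pgp-1 (row gene20188, chromosome IV, 12591704 to 12599169, minus strand) stood at 4.53, 4.58 and 3.97 CPM in controls 1 to 3 and 946 and 662 CPM in honokiol 1 and 2. Its honokiol libraries differed from each other by more than those of most called genes, but both lay far above the controls, a change of 7.52 ± 0.22 with an adjusted p of 6.44e-12. The gene pgp-14 stood at 208, 183 and 174 CPM in controls 1 to 3 and 439 and 395 CPM in honokiol 1 and 2 and pgp-9 at 43.1, 40.9 and 35.5 CPM in controls 1 to 3 and 140 and 96.2 CPM in honokiol 1 and 2, with changes of 1.14 ± 0.13 and 1.57 ± 0.16. Also called was pgp-3 (1.22 ± 0.11), while pgp-5, used as a reporter of drug and pathogen responses, stood at 210.1, 178.4 and 159.5 CPM in controls 1 to 3 and 207 and 203.2 CPM in honokiol 1 and 2 with an interval of -0.08 to 0.41. Of 8 multidrug resistance-associated proteins 2 rose, mrp-2 (1.05 ± 0.12) and mrp-3 (0.42 ± 0.10). The count was 1 without any library but magnolol 1 or 2, where mrp-3 had an adjusted p of 0.0605 to 0.184. Of 28 other ABC transporters 2 rose, abt-4 (1.72 ± 0.17) and haf-7 (0.80 ± 0.11).

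**Figure D2:**
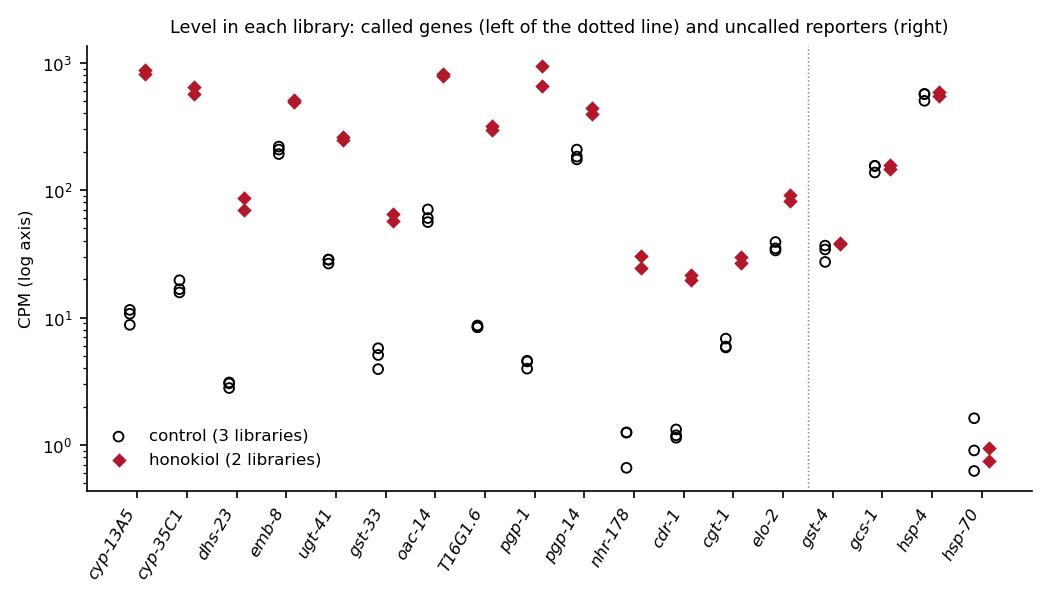
CPM on a log axis is shown for each of the 3 control libraries (open circles) and 2 honokiol libraries (red diamonds), for 14 called genes left of the dotted line and 4 uncalled reporters right of it. In the called genes the diamonds stand above all circles, as for cyp-13A5 at 823 and 878 CPM against 8.76 to 11.5 CPM, while in gcs-1, hsp-4 and hsp-70 circles and diamonds overlap.

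**Figure D3:**
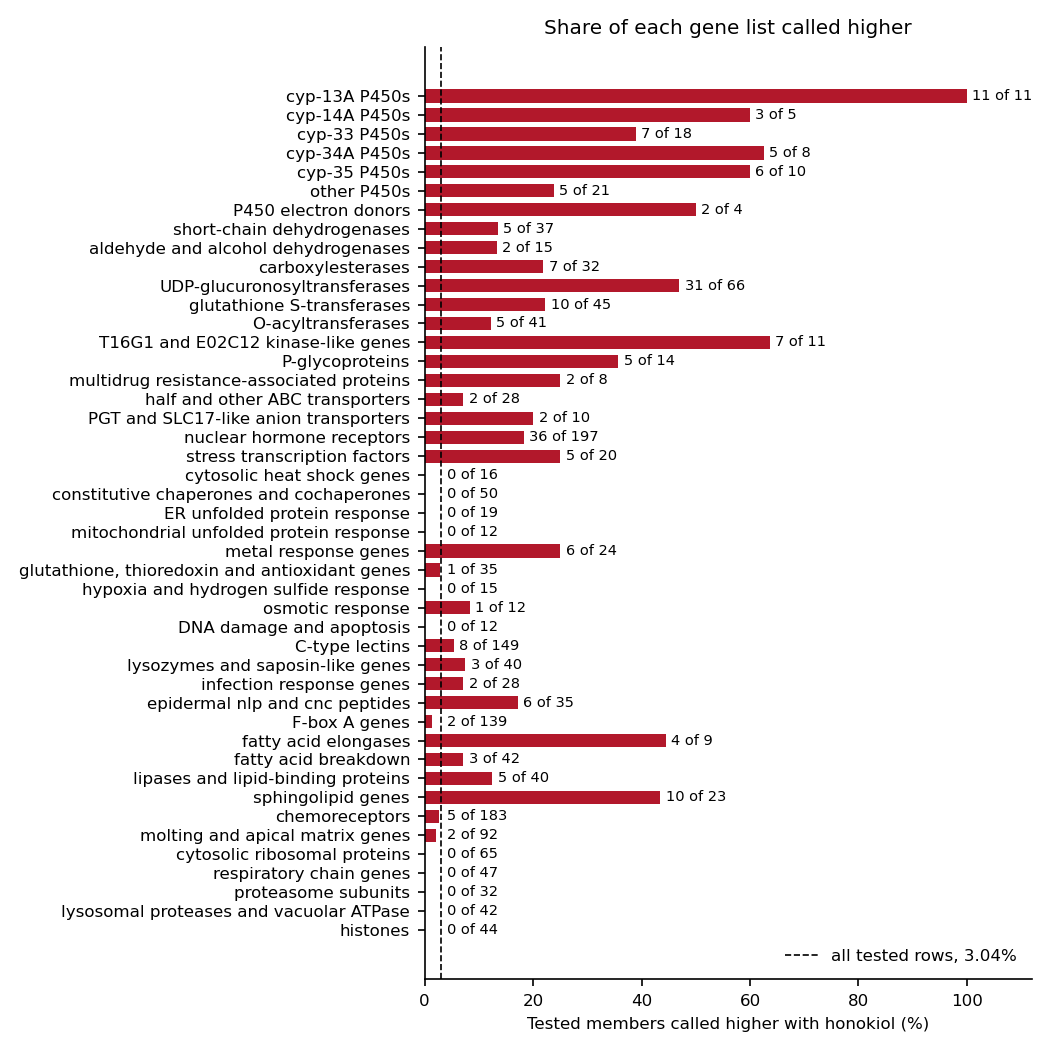
Bars give the percentage of the tested members of each gene list that were called higher, with the count beside each bar and a dashed line at 3.04%, the percentage of all tested rows. The lists shown have at least 2 called members or belong to stress or housekeeping functions; the P450 subfamilies, kinase-like genes, UDP-glucuronosyltransferases, elongases and sphingolipid genes stand far right of the line, and chaperone, ribosome, respiratory chain, proteasome and histone lists are at 0.

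Transcripts of regulators were also among the rises. Nuclear hormone receptors are ligand-regulated transcription factors. There were 258 such rows, of which 197 were tested and 36 rose (18.3% higher, median 0.24). The gene nhr-178 stood at 1.25, 1.25 and 0.661 CPM in controls 1 to 3 and 24.6 and 30.6 CPM in honokiol 1 and 2, a change of 4.69 ± 0.21, and nhr-237 at 0.847, 0.922 and 0.992 CPM in controls 1 to 3 and 20.3 and 19.7 CPM in honokiol 1 and 2, a change of 4.44 ± 0.18. At a higher level, nhr-232 stood at 7.18, 10.3 and 10.2 CPM in controls 1 to 3 and 81.2 and 76.6 CPM in honokiol 1 and 2, a change of 3.10 ± 0.16. In all 3 the honokiol libraries were close to each other and above the controls. The next by p was nhr-142 (2.87 ± 0.13), and nhr-210 (2.16 ± 0.17), nhr-62 (1.596 ± 0.16) and nhr-45 (1.22 ± 0.12) were named after their values were seen. The count was 24 without honokiol 2 and 26 without honokiol 1. The factors best known for control of detoxification genes, such as nhr-8, ahr-1, skn-1, mdt-15 and hif-1, form a list of 9, of which 0 were called in edgeR, DESeq2 or limma-voom, with changes of -0.51 to 0.16. At an unadjusted p under 0.05 there was 1. As 3.04% of all tested rows were called higher, 0 of 9 does not set this list apart. For nhr-8 the libraries stood at 58.5, 57.4 and 53.2 CPM in controls 1 to 3 and 61.1 and 63.4 CPM in honokiol 1 and 2, with an interval of -0.07 to 0.35.

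Of 20 stress transcription factors 5 rose (median 0.10). The zinc finger gene pqm-1 stood at 39.97, 36.4 and 33.4 CPM in controls 1 to 3 and 85.1 and 73.9 CPM in honokiol 1 and 2, a change of 1.12 ± 0.11, and the bZIP gene zip-10 at 5.28, 5.68 and 3.87 CPM in controls 1 to 3 and 12.9 and 14.3 CPM in honokiol 1 and 2, a change of 1.46 ± 0.17. The STAT gene sta-2 of the epidermal immune response rose by 0.86 ± 0.12. Closer to the threshold were fos-1 (0.66 ± 0.13, adjusted p of 0.00717 and 0.0877 without honokiol 1) and the intestinal GATA factor elt-7 (0.71 ± 0.18, 0.0456). The call of elt-7 was lost without any control, honokiol 2 or magnolol 3, at an adjusted p of 0.0520 to 0.470. The insulin pathway factor daf-16 stood at 122, 106 and 118 CPM in controls 1 to 3 and 108 and 97.4 CPM in honokiol 1 and 2 (interval -0.43 to 0.09).

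Sphingolipid synthesis was a further group in which many members rose. These enzymes join serine to a fatty acyl chain, build ceramide and attach head groups to it. Of 23 genes 10 rose (43.5%), with a median of 0.24. The count was 7 to 10 with a library left out. At the first step, sptl-2, a subunit of serine palmitoyltransferase, stood at 20.9, 23.2 and 17.1 CPM in controls 1 to 3 and 49.1 and 54.6 CPM in honokiol 1 and 2, a change of 1.34 ± 0.13, and sptl-3 at 74.3, 65.0 and 77.0 CPM in controls 1 to 3 and 114 and 115 CPM in honokiol 1 and 2, a change of 0.67 ± 0.10. Among the ceramide synthases hyl-2 (0.90 ± 0.09), hyl-1 (0.72 ± 0.10) and lagr-1 (0.65 ± 0.13) rose, the last with an adjusted p of 0.00594 and 0.0779 without honokiol 1. The dihydroceramide desaturase gene ttm-5 rose by 0.87 ± 0.12. At the last step cgt-1, a ceramide glucosyltransferase, stood at 6.83, 5.92 and 5.82 CPM in controls 1 to 3 and 26.9 and 29.8 CPM in honokiol 1 and 2, a change of 2.19 ± 0.14. Its paralog cgt-3, at 137, 127 and 128 CPM in controls 1 to 3 and 171 and 175 CPM in honokiol 1 and 2, moved by 0.40 ± 0.09 with an adjusted p of 0.0216, which was 0.0547 to 0.147 without control 1, control 2, either honokiol library or magnolol 3. The fatty acid hydroxylase gene fath-1 (0.42 ± 0.09) had an adjusted p of 0.0188, and of 0.0583 to 0.160 without control 1, control 2 or either honokiol library. On the side of breakdown, gba-2, a glucosylceramidase relative outside the list, stood at 1.34, 1.96 and 1.29 CPM in controls 1 to 3 and 59.0 and 56.2 CPM in honokiol 1 and 2, a change of 5.22 ± 0.17. The sphingosine phosphate lyase relative spl-2 rose by 0.88 ± 0.13. The 13 members that were not called, among them the ceramidase, sphingomyelinase and sphingomyelin synthase genes, had changes of -0.08 to 0.26.

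Fatty acid elongases rose in 4 of 9 (median 0.25). The palmitate elongase gene elo-2 stood at 39.1, 33.6 and 34.9 CPM in controls 1 to 3 and 91.2 and 82.7 CPM in honokiol 1 and 2, a change of 1.28 ± 0.11. The genes elo-5 and elo-6, which make the branched-chain fatty acids that C. elegans uses in its sphingolipids, stood at 79.0, 58.3 and 81.9 CPM in controls 1 to 3 and 122 and 121 CPM in honokiol 1 and 2 for elo-5 and 113, 92.9 and 122 CPM in controls 1 to 3 and 209 and 223 CPM in honokiol 1 and 2 for elo-6. The honokiol libraries of both were above the controls, with changes of 0.74 ± 0.13 and 0.98 ± 0.12. The call of elo-9 (0.74 ± 0.16, adjusted p of 0.0159) was lost without control 1 or either honokiol library, at 0.0744 to 0.113. Of 15 genes of fatty acid synthesis and desaturation 1 rose, the palmitoyl-CoA desaturase gene fat-5 (1.12 ± 0.13), and fat-7 stood at 72.3, 80.1 and 75.2 CPM in controls 1 to 3 and 78.5 and 84.0 CPM in honokiol 1 and 2.

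**Figure D4:**
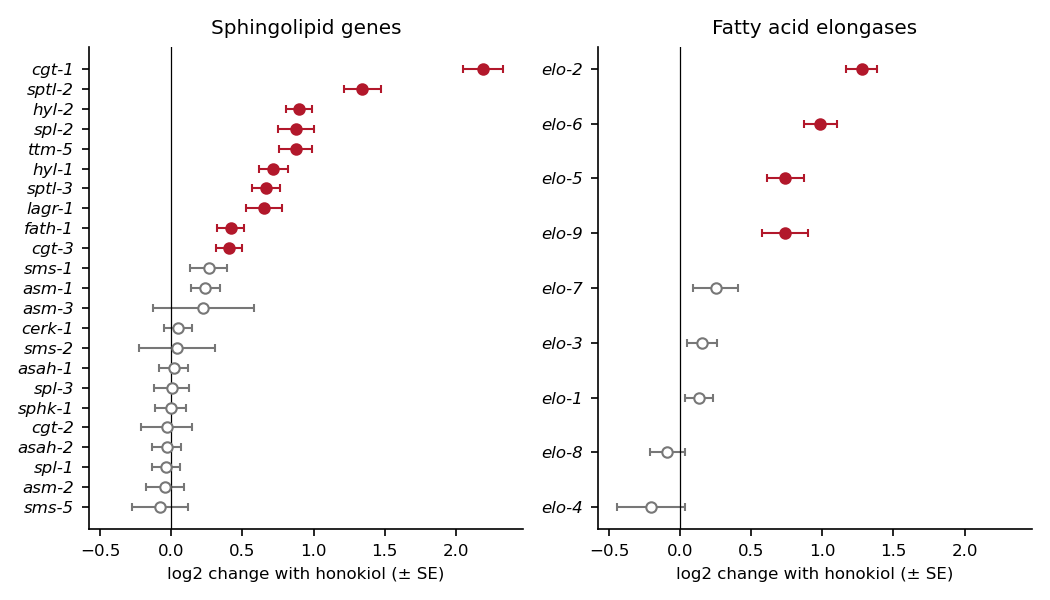
The log2 change with honokiol ± SE is shown for each tested sphingolipid gene (left) and each fatty acid elongase gene (right), red and filled where called higher and grey and open where not called. Among the sphingolipid genes cgt-1 at 2.19 stands furthest right and 13 uncalled members gather around 0; among the elongases elo-2, elo-6, elo-5 and elo-9 lie at 0.74 to 1.28.

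In fat breakdown and lipid binding some genes were called. Of 42 fatty acid breakdown genes 3 rose and 1 fell (median -0.03). The carnitine palmitoyltransferase relative cpt-4 stood at 20.4, 25.1 and 16.5 CPM in controls 1 to 3 and 107 and 95.1 CPM in honokiol 1 and 2, a change of 2.29 ± 0.15. The enoyl-CoA hydratase relative ech-7 rose by 0.89 ± 0.14, and hacd-1 (0.74 ± 0.15) had an adjusted p of 0.00951, 0.0547 without control 1 and 0.130 without honokiol 2. The acyl-CoA oxidase gene acox-1.6 fell (-0.55 ± 0.12, adjusted p of 0.0179, and 0.0884 and 0.280 without control 1 and honokiol 1). Of 40 lipase and lipid-binding rows 5 rose (12.5%, median 0.07), beside 3.04% of all tested rows. The lysosomal lipid chaperone gene lbp-8 stood at 0, 0.357 and 0.397 CPM in controls 1 to 3 and 4.84 and 4.04 CPM in honokiol 1 and 2, a change of 4.15 ± 0.58, and the lipase-like genes lips-10 (1.02 ± 0.10) and lips-5 (1.87 ± 0.24) rose too. A relative of mammalian ABHD5, a lipase activator, abhd-5.1 rose by 1.85 ± 0.13. The fatty acid amide hydrolase gene faah-2 stood at 117, 146 and 116 CPM in controls 1 to 3 and 364 and 356 CPM in honokiol 1 and 2, a change of 1.51 ± 0.11. In sterol metabolism daf-36, an oxygenase at the start of dafachronic acid synthesis, rose by 1.19 ± 0.16 as the only called member of 8. The abhd-5.1 and faah-2 genes were named after their values were seen.

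Metal response genes rose in 6 of 24 rows (median 0.27). The gene cdr-1, of a family first described for cadmium, stood at 1.14, 1.19 and 1.32 CPM in controls 1 to 3 and 19.6 and 21.7 CPM in honokiol 1 and 2, a change of 4.08 ± 0.18. Its relative cdr-4 stood at 31.6, 27.5 and 33.5 CPM in controls 1 to 3 and 130.2 and 133.7 CPM in honokiol 1 and 2, a change of 2.09 ± 0.10, and cdr-2 rose by 1.32 ± 0.10. The counts of the 2 numr-2 rows were nearly equal, and these rows cannot be told apart. The metallothionein genes were not called: mtl-2 stood at 2.48, 2.62 and 3.24 CPM in controls 1 to 3 and 3.18 and 6.17 CPM in honokiol 1 and 2, and 1 honokiol library lay within the range of the controls. The ferritin gene ftn-1 stood at 17.8, 19.8 and 27.4 CPM in controls 1 to 3 and 13.8 and 15.5 CPM in honokiol 1 and 2, with both honokiol libraries below the controls and an interval of -0.94 to -0.19, which did not pass the adjusted threshold.

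Chaperone and organelle stress genes showed no calls. Among all tested rows 3.04% were called higher and 0.393% lower, shares at which lists this short would hold few calls or none. Of 16 cytosolic heat shock rows 0 were called in edgeR, with 2 at an unadjusted p under 0.05, hsp-17 (0.38 ± 0.13) and hsp-12.3 (-0.63 ± 0.20). The inducible chaperone hsp-70 stood at 0.905, 0.625 and 1.62 CPM in controls 1 to 3 and 0.742 and 0.95 CPM in honokiol 1 and 2, with the honokiol values inside the range of the controls. The endoplasmic reticulum chaperone gene hsp-4 stood at 566, 569 and 502 CPM in controls 1 to 3 and 586 and 549.5 CPM in honokiol 1 and 2, and 0 of 19 genes of the unfolded protein response of that compartment were called (0 at an unadjusted p under 0.05). The mitochondrial chaperone genes hsp-6 and hsp-60 had intervals of -0.46 to 0.22 and -0.44 to 0.13, and 0 of 12 genes of the mitochondrial response were called (1 at an unadjusted p under 0.05). Of 50 constitutive chaperones and cochaperones 0 were called and 1 was at an unadjusted p under 0.05. DESeq2 and limma-voom also made 0 calls in these 4 lists. Of 35 glutathione, thioredoxin and antioxidant genes 1 was called, gpx-1 (0.46 ± 0.12, adjusted p of 0.0402), which reached 0.0625 to 0.205 when control 1 or 2, either honokiol library, or magnolol 1 or 3 was left out. The superoxide dismutase gene sod-3 stood at 1.75, 1.87 and 2.55 CPM in controls 1 to 3 and 3.23 and 3.89 CPM in honokiol 1 and 2 and was not called (interval 0.21 to 1.37). The glycerol synthesis gene gpdh-1, a reporter of osmotic stress, stood at 59.4, 52.6 and 49.1 CPM in controls 1 to 3 and 82.2 and 72.0 CPM in honokiol 1 and 2, a change of 0.52 ± 0.11 with an adjusted p of 0.0118, 0.0515 without control 2 and 0.156 without honokiol 1.

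Lists of defence against microbes differed in their share of rises. C-type lectins rose in 8 and fell in 2 of 149 tested rows (5.37% higher), beside 3.04% higher and 0.393% lower among all tested rows. The gene clec-210 stood at 0.467, 0.714 and 0.926 CPM in controls 1 to 3 and 15.9 and 19.4 CPM in honokiol 1 and 2, a change of 4.66 ± 0.26, and clec-206 at 0.847, 0.595 and 0.628 CPM in controls 1 to 3 and 10.1 and 8.57 CPM in honokiol 1 and 2, a change of 3.75 ± 0.36. Those that fell were clec-51 (-0.69 ± 0.12) and clec-165 (-1.80 ± 0.41). Without honokiol 1 they had adjusted p of 0.0705 and 0.203, and without control 1 clec-165 had 0.0729. Of 40 lysozyme and saposin-like rows 3 rose, which are the neighbours lys-1, lys-2 and lys-3 on chromosome V. The gene lys-2 stood at 102, 92.8 and 113 CPM in controls 1 to 3 and 167 and 175 CPM in honokiol 1 and 2, a change of 0.74 ± 0.11, and lys-3 rose by 1.699 ± 0.17 from a low level. The gene lys-1 (0.54 ± 0.11) had an adjusted p of 0.0107, and of 0.0599 to 0.122 without control 1, control 2 or honokiol 2. Among 35 epidermal peptide genes 6 rose (17.1%, against 3.04% of all tested rows), and 2 did without honokiol 2. The caenacin gene cnc-4 stood at 17.5, 16.9 and 21.6 CPM in controls 1 to 3 and 45.8 and 55.3 CPM in honokiol 1 and 2, a change of 1.44 ± 0.13, and fipr-22 at 19.3, 21.4 and 14.1 CPM in controls 1 to 3 and 83.2 and 73.7 CPM in honokiol 1 and 2, a change of 2.10 ± 0.16. The reporter nlp-29 stood at 27.4, 26.5 and 33.4 CPM in controls 1 to 3 and 34.2 and 39.4 CPM in honokiol 1 and 2 with an interval of 0.02 to 0.66. The infection reporters irg-1, irg-4 and irg-5 were not called, while irg-2 rose by 1.42 ± 0.16 and the ion pump gene catp-3, at 90.4, 88.3 and 76.1 CPM in controls 1 to 3 and 466 and 423 CPM in honokiol 1 and 2, by 2.39 ± 0.11. Of 26 pals genes 0 were called by edgeR, DESeq2 or limma-voom, with 1 at an unadjusted p under 0.05.

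In structure, signalling and housekeeping lists calls were few or absent, beside 3.04% higher and 0.393% lower among all tested rows. The median change over all tested rows was -0.01. There were 0 calls among 151 cuticle collagens, 65 cytosolic ribosomal proteins, 47 respiratory chain genes, 32 proteasome subunits, 30 muscle sarcomere genes and 44 histone rows, with median changes of -0.10 to 0.04. Those with an unadjusted p under 0.05 numbered 14, 0, 0, 0, 1 and 0, and DESeq2 called 3 collagens and limma-voom 1, with 0 in the other 5 lists by either tool. In edgeR 2 collagens were called lower without honokiol 1, 1 was lower without honokiol 2, and 1 was higher without control 2. Honokiol acts on GABA receptors in mammals. Of 15 worm GABA genes 0 were called by edgeR, DESeq2 or limma-voom and 1 was at an unadjusted p under 0.05. At the share of all tested rows so short a list would hold few calls or none. Transcript levels do not test action on the receptors. The receptor gene unc-49 stood at 48.4, 46.5 and 44.7 CPM in controls 1 to 3 and 48.9 and 39.0 CPM in honokiol 1 and 2 (interval -0.40 to 0.23), and the GABA synthesis gene unc-25 at 32.5, 33.2 and 35.5 CPM in controls 1 to 3 and 33.2 and 31.3 CPM in honokiol 1 and 2 (interval -0.29 to 0.16). Of 32 acetylcholine receptor, 26 FLP and 62 NLP neuropeptide rows 0 were called, with 3, 0 and 3 at an unadjusted p under 0.05, and DESeq2 called 1 NLP gene. The yolk protein gene vit-2 stood at 7791, 6413 and 7464 CPM in controls 1 to 3 and 7455 and 4546 CPM in honokiol 1 and 2, low in honokiol 2 and within the controls in honokiol 1 (interval -0.71 to 0.18). For chemoreceptors, 183 of 1319 rows were tested and 5 rose (2.73%), a share not above the 3.04% of all tested rows. Among them srr-4 stood at 18.7, 21.4 and 21.5 CPM in controls 1 to 3 and 109 and 118 CPM in honokiol 1 and 2, a change of 2.47 ± 0.10.

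A further 291 of the 511 higher rows stood in none of the lists, 22 of them without a symbol. The following were named after their values were seen. ZK742.3 stood at 12.32, 13.1 and 13.3 CPM in controls 1 to 3 and 151 and 158 CPM in honokiol 1 and 2, a change of 3.58 ± 0.10. The gene bigr-1 stood at 5.28, 8.42 and 8.56 CPM in controls 1 to 3 and 158 and 179 CPM in honokiol 1 and 2, a change of 4.51 ± 0.16, and glo-3, which is needed to form the lysosome-like granules of the intestine, at 21.8, 14.9 and 15.5 CPM in controls 1 to 3 and 135 and 139 CPM in honokiol 1 and 2, a change of 2.98 ± 0.15. Both had honokiol libraries far above the controls. Transport genes among them were pitr-5 of the phosphate transporter family (2.17 ± 0.09), the nucleotide sugar transporter relative nstp-2 (1.25 ± 0.09) and the SWEET sugar transporter relative swt-6 (2.99 ± 0.24). The lipid phosphatase relative plpp-1.2 rose by 2.53 ± 0.11.

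In 11 rows called higher, all 3 controls were at 0 counts. Such rows passed the low-count filter only through treated libraries, so their number is no separate support for a rise. Against a floor of 3 counts over the 3 controls together, Y45G12C.4 was at least 349-fold higher on row gene33563. It held 317 and 402 counts in honokiol 1 and 2, and row gene33534 under the same symbol held 305 and 378, close to those of the first. Whether both rows count the same reads was not tested. Y73C8C.10 on chromosome V held 183 and 140 counts, at least 156.8-fold higher. F12E12.11 on row gene5537 held 184 and 164 counts, at least 168.9-fold higher, while its other row gene5536 stood at 2.42, 2.83 and 3.24 CPM in controls 1 to 3 and 52.5 and 51.2 CPM in honokiol 1 and 2. These floors cover counting error alone, and reads without molecular identifiers are not independent molecules.

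The higher genes were uneven along the genome. On chromosome V 217 of 3134 tested rows with a position were called higher (6.92%), against 1.37% on I, 2.41% on II, 1.48% on III, 2.53% on IV and 3.15% on X. Outside every list the shares were 3.50% on V and 0.848% to 2.60% on the others. Called-higher genes that follow each other among tested rows formed 17 runs of 3 or more, with 63 of the 470 higher rows that have a position. There were 0 such runs of lower genes. The longest run was cyp-13A1 to cyp-13A8, 8 genes in 28389 bases (chromosome II, 9779181 to 9807569), with all on the minus strand but cyp-13A7. Within it the members from cyp-13A4 on changed by 6.13 to 7.31 and the first 3 by 1.31 to 2.59. The second was ugt-11, ugt-9, ugt-10, ugt-8, ugt-14 and ugt-13 in 18812 bases (chromosome V, 4892588 to 4911399).

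In that second run ugt-9 stood at 1.69, 1.61 and 1.89 CPM in controls 1 to 3 and 44.5 and 40.8 CPM in honokiol 1 and 2, a change of 4.62 ± 0.17. The gene ugt-8 stood at 4.61, 1.93 and 3.54 CPM in controls 1 to 3 and 78.7 and 74.4 CPM in honokiol 1 and 2, a change of 4.51 ± 0.22, and ugt-13 at 6.66, 7.50 and 5.49 CPM in controls 1 to 3 and 78.3 and 73.0 CPM in honokiol 1 and 2, a change of 3.53 ± 0.13. The 3 genes were each above all controls in both honokiol libraries. The outer member ugt-11 (0.59 ± 0.15) had an adjusted p of 0.0412, and of 0.0562 to 0.204 without control 1 or 2, either honokiol library, or magnolol 1 or 3. The 4 runs that follow were gst-6, gst-7, gst-8 and R05F9.6 on II, cyp-34A7 to cyp-34A10 on V, srr-6, srr-4, cpt-4 and swt-7 on V, and T16G1.7 to T16G1.4 on V. In the gst run neighbours differed widely: gst-8 stood at 0, 0.178 and 0 CPM in controls 1 to 3 and 6.03 and 9.47 CPM in honokiol 1 and 2, a change of 6.90 ± 0.69, and gst-7 at 78.5, 95.2 and 93.8 CPM in controls 1 to 3 and 166 and 194 CPM in honokiol 1 and 2, a change of 1.01 ± 0.13. In the cyp-34A run cyp-34A9 rose by 2.41 ± 0.11 and cyp-34A8 by 0.50 ± 0.13, the latter with an adjusted p of 0.0408 and of 0.0620 to 0.466 without control 1, control 3, honokiol 2 or magnolol 3. The run with srr-4 holds genes of unlike families, such as swt-7 at 58.6, 64.3 and 70.5 CPM in controls 1 to 3 and 163 and 178.1 CPM in honokiol 1 and 2, a change of 1.40 ± 0.11.

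**Figure D5:**
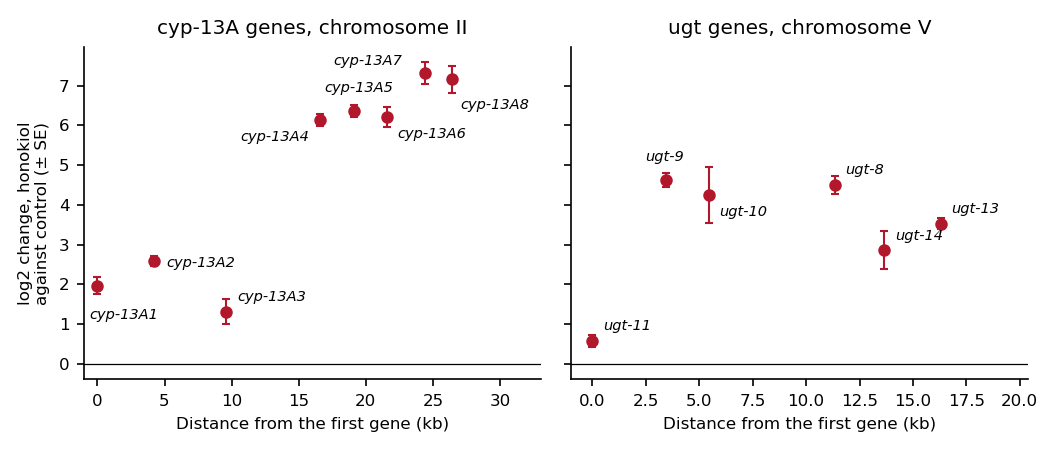
The log2 change with honokiol ± SE is plotted for each gene of the 2 longest runs against the distance of its start from that of the first gene (kb), with the cyp-13A genes left and the ugt genes right. In the cyp-13A run the first 3 genes lie between 1.31 and 2.59 and the last 5 between 6.13 and 7.31, and in the ugt run ugt-11 lies at 0.59 below its neighbours at 2.87 to 4.62.

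Among the 66 lower rows most changes were small, and 55 stood in none of the lists. ZK105.11, named after its values were seen, held 14, 25 and 25 counts in controls 1 to 3 and 0 in both honokiol libraries. Its adjusted p of 0.0170 became 0.160 without honokiol 1 and 0.171 without honokiol 2, and it was not called in limma-voom or with the replicate number as a block. Y6G8.2 stood at 46.5, 39.3 and 37.1 CPM in controls 1 to 3 and 18.8 and 16.17 CPM in honokiol 1 and 2, a change of -1.23 ± 0.13. The chitinase-like gene chil-23 stood at 15.2, 14.3 and 12.34 CPM in controls 1 to 3 and 6.08 and 6.02 CPM in honokiol 1 and 2, a change of -1.203 ± 0.16. T05F1.11 stood at 30.8, 31.1 and 21.7 CPM in controls 1 to 3 and 12.8 and 13.8 CPM in honokiol 1 and 2, a change of -1.07 ± 0.19. In these and in R10E8.6 (-0.94 ± 0.15), C06B8.2 (-0.90 ± 0.16), Y70C5A.3 on row gene39222 (-0.82 ± 0.12) and Y32F6A.4 (-0.63 ± 0.10), both honokiol libraries were below all controls. Leaving aside ZK105.11, the 7 rows just described were the ones called lower under every alternative, and chil-23 and C06B8.2 were named for that after their values were seen. Other falls named by rule included phy-2, a collagen prolyl hydroxylase subunit (-0.76 ± 0.14, adjusted p of 0.00444). Also among them were the acyl-CoA synthetase gene acs-7 (-0.73 ± 0.16, 0.0136, and 0.0681 without control 2) and mlt-10 of the molting cycle (-0.51 ± 0.12, 0.0225, and 0.0685 without control 3). These calls were also lost without honokiol 1, with changes of -0.49 for phy-2, -0.48 for acs-7 and -0.57 for mlt-10. The call of mlt-10 was lost without honokiol 2 too, at -0.45. The insulin-like peptide gene ins-33 stood at 5.14, 5.26 and 6.38 CPM in controls 1 to 3 and 2.46 and 2.997 CPM in honokiol 1 and 2, a change of -1.03 ± 0.26 with an adjusted p of 0.0415, which was 0.0532 to 0.280 with any library but magnolol 2 left out.

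Set beside magnolol at the same dose and time, part of the response differed. Both compounds share the 3 control libraries, so the direct test between honokiol and magnolol libraries is given, and the genes were chosen for their change with honokiol. Of the 511 higher rows 185 were also called above magnolol, 4 below it, and 322 had no called difference. Over all tested rows 257 were called between the compounds (1.53%), 209 of them higher with honokiol (1.24%). The count of 257 became 574 without honokiol 1, 127 without honokiol 2 and 162 without magnolol 3. All 6 called cyp-35 genes were above magnolol: cyp-35A4 stood at 1.88, 2.09 and 2.71 CPM in magnolol 1 to 3, a difference of 4.04 ± 0.20 with an adjusted p of 1.90e-08. In the other direction cyp-13A8 stood at 0.555, 0.119 and 0 CPM in controls 1 to 3 and 35.9 and 31.8 CPM in honokiol 1 and 2 and at 118, 143 and 130.2 CPM with magnolol, a difference of -1.94 ± 0.22. The other 3 rows below magnolol were cyp-13A12 (-1.40 ± 0.23), nhr-210 (-1.04 ± 0.17) and abt-4 (-0.77 ± 0.17).

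Further honokiol rises above magnolol were those of E02C12.10 (2.80 ± 0.16), dhs-23 (2.97 ± 0.18), ugt-33 (2.76 ± 0.18), clec-206 (3.42 ± 0.36), gba-2 (2.14 ± 0.14) and cdr-1 (2.19 ± 0.16), each with an adjusted p of 4.54e-05 or less. The elongase genes elo-2 (0.87 ± 0.11), elo-5 (0.76 ± 0.13) and elo-6 (0.78 ± 0.12) were also above magnolol. No called difference was found for pgp-1, where the 95% interval of the difference was -0.37 to 0.36, for emb-8 (-0.09 to 0.41), gst-33 (-0.26 to 0.28), sptl-2 (-0.14 to 0.41) or cdr-2 (-0.22 to 0.20). In the heat shock list 0 of 16 rows were called for honokiol. With magnolol against control 10 of these 16 were called higher and 1 lower, while 2.16% of all tested rows were called higher. The gene hsp-70 stood at 10.1, 12.04 and 11.3 CPM in magnolol 1 to 3. Its difference, honokiol against magnolol, was -3.71 ± 0.34 (adjusted p of 1.15e-05).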

How the data were processed

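RNA-seq was made from total RNA of whole C. elegans extracted with TRIZOL, per the labels. The values used are read counts per gene row, whole numbers without normalization, as deposited by the authors. WBcel235 (genome build) and DESeq2 are named, without a role, per the submitters' processing notes. Aligner, counting tool, annotation release, strand setting and the handling of multi-mapped reads were not given in the sources used here. Overlapping and antisense genes and near-identical copies can therefore not be told apart.

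The table held 21309 rows: 20257 gene models and 1052 loci that the authors added. Positions and exon lengths came from Ensembl's WBcel235 annotation (release 115), where 98.7% of the symbols of gene models had 1 match. No table of sequences was used here. Counts were tested as deposited with edgeR 4.0.16 in R 4.3.3 (filterByExpr by group, TMM scaling, glmQLFit with group means over all 8 libraries, glmQLFTest, Benjamini-Hochberg adjustment over 16813 rows at 0.05). Its coefficient of biological variation was 14.1%, and its degrees of freedom were 5 residual plus 9.35 prior. CPM was computed from TMM-scaled library sizes, and intervals are 95% intervals of the log2 change from the same fit. Replicates differed by more than counting noise in every pair (chi-square per degree of freedom of 11.9, 33.7 and 38.3 between controls and 30.8 between the honokiol libraries).

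The members and the 64 gene lists, 11 lists of tissue and stage markers and tests were chosen with earlier results of these data known, so counts over lists are descriptions. The rule for naming genes took the 15 largest rises and falls at or above the median level without overlap, up to 4 called members with the smallest p per list, 10 called rows with controls under 1 CPM, a set of reporters called or not, the members of the 6 largest runs of neighbours, and the 10 largest called differences from magnolol. Other genes are said to be named after their values were seen where they carry a result, and further called members of a list are given to complete it. On simulated counts for 14403 rows the test of honokiol against control recovered 49.3% of 1.5-fold changes, 77.6% of 2-fold changes and 95.5% of 4-fold changes, and 4.52% of the simulated calls were false. The simulated rows had control means above 1 CPM, changes up and down with equal odds, and no trend with exon length. In the data 57 rows called higher had control means under 1 CPM and most changes were upward, so these shares are not error rates of the real calls.

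Alternatives were DESeq2 size factors, DESeq2 1.42.0, limma-voom (limma 3.58.1), a strict low-count filter (50 counts in 2 libraries) or none, a fit of the groups compared alone, the replicate number as a block, a threshold of 0.01, no added loci, a correction for exon length, and each library left out in turn. A honokiol library left alone in its group was taken to vary as libraries of control and magnolol do. Plots used Python 3.11.15, pandas 2.3.3 and matplotlib 3.10.9.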

Additional observations from a re-analysis of the deposited data

How the results depend on the processing

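The count of higher genes stayed within 1.5 times of 511 in each of the 17 alternative fits and at a threshold of 0.01, from 377 without honokiol 2 to 583 with the length correction. The count of genes higher by at least 2-fold did so as well. The count of lower genes, 66, became 116 in DESeq2, 101 with the length correction and 17 at a threshold of 0.01, and ran from 35 to 74 with a library left out. Lower by at least 2-fold were 16 genes, 27 in DESeq2, 7 at 0.01 and 10 to 18 with a library left out. Between honokiol and magnolol the 257 calls became 603 in DESeq2, 576 without the low-count filter and 159 at 0.01, and 127 to 574 with a library left out. The causes were not tested.

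With the replicate number as a block, 420 genes were higher, 33 lower and 163 different from magnolol. Libraries of the same number did not deviate together (correlations of 0.086 and 0.025 for numbers 1 and 2 of control and honokiol), so the numbers are not taken to pair the libraries.

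Of 213 named results that were called, 164 were called in every alternative and 49 were lost in at least 1. Signs changed in 12 uncalled reporters. With a library left out, log2 changes ran from -0.24 to 0.0631 for unc-49, -0.318 to 0.244 for fmo-2, -0.565 to 0.151 for hsp-70, -0.104 to 0.149 for irg-1, -0.459 to 0.158 for hsp-6, -0.606 to 0.239 for mtl-1, -0.101 to 0.315 for irg-5, -0.651 to 0.0379 for vit-2, -0.0244 to 0.0632 for gcs-1, -0.0987 to 0.157 for cysl-2, -0.174 to 0.287 for pals-22 and -0.372 to 0.0436 for hsp-60. The length correction gave 0.0319 for unc-49 and -0.0146 for irg-1, limma-voom gave 0.0502 for fmo-2, and the replicate block gave 0.159 for fmo-2, 0.0619 for mtl-1 and -0.0117 for gcs-1.

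Depth limits the rows near 0 in both groups, and 2 honokiol libraries limit small changes: in the simulation 49.3% of genes changed by 1.5-fold were recovered. Uncalled genes leaned with exon length (Spearman rho of -0.19 over 14603 genes), with a median change of 0.05 in the shortest 10% and -0.13 in the longest 10%.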

Other observations

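Shorter runs of neighbouring higher genes held more of the same families and some unlike pairs. On chromosome V cyp-35A3 and cyp-35A4 flank K09D9.1, which stood at 3.77, 5.26 and 3.70 CPM in controls 1 to 3 and 13.6 and 13.4 CPM in honokiol 1 and 2, a change of 1.66 ± 0.19. Next to each other on the same chromosome, E02C12.6 (2.12 ± 0.16), E02C12.10 (5.80 ± 0.19) and E02C12.11 (5.91 ± 0.67) spanned 10432 bases. On X, cyp-13B1 was followed by C29F7.2, which stood at 58.3, 60.03 and 60.5 CPM in controls 1 to 3 and 184 and 208 CPM in honokiol 1 and 2, a change of 1.71 ± 0.10. In a run of 3 on V the lipid chaperone gene lbp-8, the serine palmitoyltransferase gene sptl-3 and cyp-35C1 lie within 7715 bases, with changes of 4.15 ± 0.58, 0.67 ± 0.10 and 5.13 ± 0.13. K09D9.1, E02C12.6 and C29F7.2 were named after their values were seen. No test was made of whether these runs exceed chance.

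Among added loci, which the authors placed beside the gene models, 9 of 624 tested were called higher and 5 lower. The shares of all tested rows were 3.04% higher and 0.393% lower. One of them carries the symbol cyp-13A5 (row NewGene_1343) and stood at 0.234, 0.506 and 0.761 CPM in controls 1 to 3 and 23.2 and 23.1 CPM in honokiol 1 and 2, a change of 5.55 ± 0.24, beside the gene model row of that name described above.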
